A study of Mus musculus with 5 samples.

Results

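The 10 genes described here, Lox, Loxl1, Loxl2, Loxl3, Plod1, Plod2, P4ha1, P4ha2, Serpinh1 and Bmp1, make the enzymes and the chaperone that modify, fold, trim and crosslink collagen. They were taken by gene symbol, and all 10 were found among 19941 mouse gene models of at least 2000 bp that share no strand with another gene in the part counted. Engaged RNA polymerase was mapped by global run-on sequencing, a method that lets polymerases in isolated nuclei add brominated uridine to the RNA they are making and sequences the RNA caught by an antibody to it, so a read gives the position and strand of a transcribing polymerase and not the level of stable RNA. Mouse embryonic stem cells (MESC, 3 samples) were of the single line V6.5, at passages 12 to 14, on irradiated feeder cells in medium with LIF and 15% serum. Mouse embryonic fibroblasts (MEF, 2 samples) came from male E13.5 embryos and were at passage 2, in medium with 10% serum and no LIF. Both were of the cross C57Bl/6(f) x 129/Sv(m).

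The samples of a cell type lie in 1 pooled read set, so every value below comes from 1 library per cell type, with no spread between replicates and no test between the cell types. The MESC set held 8616592 reads and the MEF set 6583644. Intervals in parentheses are exact 95% intervals of counting error only, and since reads carry no molecular identifiers they may be too narrow. Of the ES cell markers, 10 of 10 tested passed 4-fold toward MESC, against 8.00% of all bodies tested. Of the 10 with a count, 5 had no read in MEF. All 10 reached the minimum of 50 body reads only through MESC, so they were bound to lean to MESC. Of the fibroblast markers, 8 of 9 tested were at least 4-fold higher in MEF, against 5.51% of all bodies tested, the exception being Dcn. Thy1, Postn, S100a4 and Dcn reached the minimum only through MEF, so they were bound to lean to MEF. The summed density of the 12 fibroblast markers was 109.6 RPKM in MEF against 7.14 in MESC. RPKM is the read density per kb, scaled by the depth of the library outside the mitochondrial genome. Among these fibroblast markers MESC held from 0 reads of Lum and 1 of Postn to 228 of Prrx1 and 233 of Pdgfra. Col1a1 held 75 reads there and Col1a2 158. The share of feeder nuclei in the MESC samples, which bears on every low MESC value below, was not tested. Of the macrophage markers 2 of 2 tested were higher in MEF, both reaching the read minimum only through MEF. The 7 with a count, none of them at 0, summed to 2.79 RPKM in MEF and 0.178 in MESC. The part of macrophages in the MEF values was not tested. A pool of nuclei cannot tell fewer cells of a type from less transcription per cell.

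Collagen is built in the endoplasmic reticulum and finished outside the cell. Prolyl hydroxylases, whose catalytic subunits are encoded by P4ha1 and P4ha2, stabilise the triple helix, and lysyl hydroxylases, encoded by Plod1 and Plod2, mark the lysines that later form crosslinks. The Serpinh1 product, a collagen-specific chaperone of the endoplasmic reticulum, holds the folded helix, and Bmp1 encodes the protease that removes the carboxy-terminal propeptide outside the cell. Lysyl oxidases, copper enzymes encoded by Lox and its relatives Loxl1, Loxl2 and Loxl3, then oxidise lysines of collagen and elastin so that fibres become crosslinked, a main task of fibroblasts in connective tissue.

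The DNA just before the annotated starts differed in CpG content, a feature that the choice of genes did not use. In the 150 bp before the first annotated start, the 4 hydroxylase genes held 14 CpG (Plod1), 18 (Plod2), 17 (P4ha1) and 2 (P4ha2), and P4ha2 held 18 before the start of its longest transcript. The 4 lysyl oxidase genes held 2 (Lox), 6 (Loxl1), 8 (Loxl2) and 6 (Loxl3). Serpinh1 held 4 and Bmp1 held 14, and over the same window of 19938 genes the median was 6, with quartiles of 2 and 12. The sequences of 5 genes are shown, with 4 to 18 CpG: those that reached the read minimum at the promoter, described below, other than Lox. For Loxl2 the promoter reads were counted around the start of its longest transcript, 305 bp after its first start. They are read from the NCBIM37 genome, which is mm9, 5′ to 3′ along the gene, and end at the base before the first annotated start. Capitals mark matches to the motifs searched.
Plod2 (chr9:92436911-92437060, plus strand): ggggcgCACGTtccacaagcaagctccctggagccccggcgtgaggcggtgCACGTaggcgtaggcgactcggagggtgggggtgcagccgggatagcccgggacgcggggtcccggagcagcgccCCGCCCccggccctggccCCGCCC
P4ha1 (chr10:58785894-58786043, plus strand): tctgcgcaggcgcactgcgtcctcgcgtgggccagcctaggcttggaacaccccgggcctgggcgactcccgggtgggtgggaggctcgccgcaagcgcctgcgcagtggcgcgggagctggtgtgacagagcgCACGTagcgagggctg
Serpinh1 (chr7:106501741-106501890, minus strand): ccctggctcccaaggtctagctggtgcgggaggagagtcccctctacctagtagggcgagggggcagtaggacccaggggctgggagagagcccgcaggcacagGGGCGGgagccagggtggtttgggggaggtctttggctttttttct
Loxl2 (chr14:70008828-70008977, plus strand): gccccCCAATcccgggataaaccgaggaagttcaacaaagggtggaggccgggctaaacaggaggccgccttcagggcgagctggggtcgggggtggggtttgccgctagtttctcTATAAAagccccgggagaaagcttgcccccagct
Loxl3 (chr6:82984017-82984166, plus strand): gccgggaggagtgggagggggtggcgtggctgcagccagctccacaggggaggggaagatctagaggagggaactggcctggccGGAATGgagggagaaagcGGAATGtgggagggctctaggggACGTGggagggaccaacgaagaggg
Motifs were searched on both strands, and no matches overlapped in the windows of the 10 genes. TATAAA, the letters of a TATA box, was found in Loxl2 alone of the 10 genes, starting 34 bp before its first start, and in 6.16% of all 19938 windows of the same length. ACGTG, the core letters of the hypoxia response element, was found in Plod2, P4ha1 and Loxl3, and in 12.3% of all windows. GGGCGG, the letters of a GC box, was found in Plod1, Plod2, P4ha2, Serpinh1 and Bmp1, and in 7187 of all windows. CCAAT matched in Loxl2 (25.7% of all windows) and GGAATG in Loxl3 (7.02%). The heat shock element letters GAANNTTC (3.75% of all windows) and their other phase TTCNNGAA (3.63%) were in none of the 10 windows, nor was the AP-1 site TGANTCA (3.93%). A match is a description of letters and not evidence of a bound factor.

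The first comparison asked how much polymerase the gene bodies carried in each cell type. Bodies ran from 1000 bp after the start to the annotated end, on the sense strand. The 4 lysyl oxidase genes, Serpinh1 and Bmp1 were each at least 4-fold higher in MEF, while the 4 hydroxylase genes lay within 4-fold. Thus 6 of 10 passed 4-fold toward MEF and 0 of 10 toward MESC. Among all 9512 gene bodies that reached 50 reads in a library, 5.51% passed 4-fold toward MEF and 8.00% toward MESC, or 524 and 761 bodies, and under TMM scaling 639 and 645. For each of the 6 genes the lower bound of the fold lay above 4. The median log2 ratio of MESC over MEF was -2.69 for the 10 genes and 0.30 for all bodies tested, and it is the latter value against which a gene's ratio is to be read. All 10 genes passed the read minimum, Lox only through its MEF reads, so that its place in this count was bound to lean to MEF; the other 5 genes past 4-fold reached it in both libraries.

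**Figure D1:**
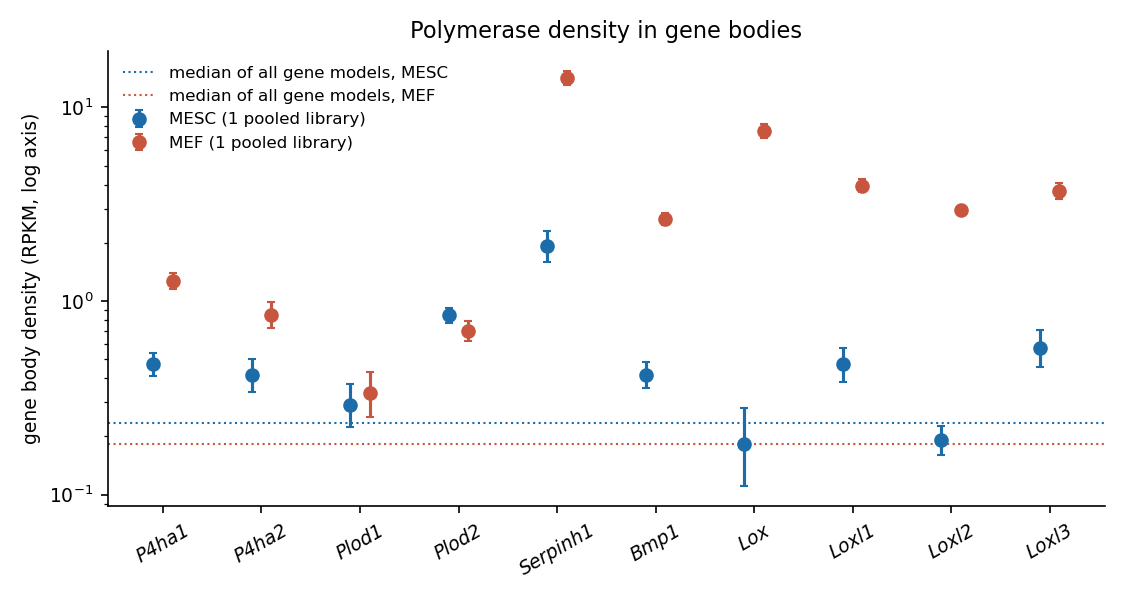
Gene body density in RPKM (log axis) of the 10 genes in MESC (blue) and MEF (red), 1 pooled library each; bars are exact 95% Poisson intervals and dotted lines the medians of all gene models, 0.234 in MESC and 0.182 in MEF. Serpinh1 (14.2 RPKM) and Lox (7.56) stand highest in MEF, and the 2 cell types nearly coincide at Plod1 and Plod2.

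Among the prolyl hydroxylase genes, P4ha1 (chromosome 10, 58786044 to 58836052) had 198 body reads in MESC and 410 in MEF, or 0.471 and 1.27 RPKM. It was 2.70-fold higher in MEF (2.27 to 3.22). P4ha2 (chromosome 11, 53914426 to 53945154), the alternative catalytic subunit, held 106 reads in MESC and 166 in MEF, and was 2.04-fold higher in MEF (1.59 to 2.63). Both intervals lay on the MEF side of 1 and short of 4-fold. P4ha3, a further subunit gene of the same enzyme family outside the 10, held 17 reads in MESC and 213 in MEF and was 16.3-fold higher in MEF (9.97 to 28.6). P4hb, whose product is the partner subunit shared by these enzymes and also a general disulfide isomerase, held 507 and 377 reads and a log2 ratio of 0.04.

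The lysyl hydroxylase genes carried similar polymerase in both cell types. Plod1 (chromosome 4, 147283862 to 147310876) had 65 body reads in MESC and 57 in MEF, densities of 0.292 and 0.333 RPKM. Its fold toward MEF was 1.14 (0.787 to 1.66), an interval that holds 1, and the sign of its log2 ratio turned from -0.19 to 0.07 when the body was counted from 3000 bp. Plod2 (chromosome 9, 92437061 to 92503266), which encodes the enzyme known for hydroxylating the telopeptide lysines, held 471 reads in MESC and 301 in MEF, or 0.843 and 0.702 RPKM. Its ratio of MESC over MEF was 1.20 (1.04 to 1.39), or log2 0.26, close to the 0.30 of all bodies, and 0.02 under TMM scaling, where all bodies stood at 0.06. Of the 10 genes Plod2 alone had more body density in MESC than in MEF.

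Serpinh1 (chromosome 7, 106493885 to 106501740) had the highest body density of the 10 genes in both cell types. It held 113 reads in MESC and 640 in MEF, or 1.92 and 14.2 RPKM, above 88.6% and 99.7% of all gene models. It was 7.39-fold higher in MEF (6.04 to 9.11). In MESC its density was 2.28 times that of Plod2, the next gene in order (1.84 to 2.81), and in MEF 1.88 times that of Lox (1.68 to 2.10). Bmp1 (chromosome 14, 70874364 to 70920067) had 160 body reads in MESC and 784 in MEF, or 0.418 and 2.67 RPKM, and was 6.39-fold higher in MEF (5.39 to 7.62).

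The lysyl oxidase genes included the largest differences of the set. Lox (chromosome 18, 52675723 to 52689521), the founding member, held 20 body reads in MESC and 636 in MEF, densities of 0.182 and 7.56 RPKM. It was 41.5-fold higher in MEF (26.6 to 68.4). Its MESC density lay above 46.9% of all gene models and its MEF density above 99.1%. Loxl2 (chromosome 14, 70009283 to 70095640) had 140 reads in MESC and 1656 in MEF and was 15.4-fold higher in MEF (13.0 to 18.5). Loxl1 (chromosome 9, 58135530 to 58161019), known for its part in elastic fibres, held 99 and 634 reads and was 8.35-fold higher in MEF (6.75 to 10.4). Loxl3 (chromosome 6, 82984167 to 83002556) had 85 and 425 reads and was 6.52-fold higher (5.16 to 8.33). The interval of Lox lay above those of the other 3, and that of Loxl2 above those of Loxl1 and Loxl3, which overlapped each other. Loxl4, the remaining gene of the family and not among the 10, held 37 reads in MESC and 54 in MEF, 1.90-fold higher in MEF (1.23 to 2.98).

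The order of body densities differed between the cell types. In MEF it ran from Serpinh1 through Lox, Loxl1 (3.94 RPKM), Loxl3 (3.72), Loxl2 (2.95) and Bmp1 (2.67) to P4ha1 (1.27), P4ha2 (0.850), Plod2 (0.702) and Plod1 (0.333). Within that order the counting intervals held a ratio of 1 for 2 of 9 neighbouring pairs, Loxl1 with Loxl3 and P4ha2 with Plod2. In MESC the order was Serpinh1, Plod2, Loxl3 (0.570), Loxl1 (0.472), P4ha1 (0.471), Bmp1 (0.418), P4ha2 (0.416), Plod1 (0.292), Loxl2 (0.191) and Lox (0.182). There 5 of 9 neighbouring pairs could not be told apart, namely each pair of neighbours from Loxl3 to P4ha2, and Loxl2 with Lox. Genes farther apart in these orders were not compared. Lox thus stood second in MEF and last in MESC, and Plod2 second in MESC and next to last in MEF.

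Splitting MESC by read length, a technical split of the pooled library, gave a rough measure of its inner spread. Lox held 7 reads of 35 bases and 13 of 36 bases, and its log2 ratio was -5.78 with the former and -5.10 with the latter. For Loxl1 the folds were 9.84 and 7.39, for Serpinh1 7.31 and 7.46, and for Bmp1 7.30 and 5.77. All 10 ratios between the length classes had intervals that held 1, from 0.623 (0.210 to 1.68) for Lox to 1.45 (0.973 to 2.18) for P4ha2. Over 8956 bodies with at least 20 reads in each class, the log2 ratio between the classes had a standard deviation of 0.33. That value includes counting error, which was not taken out. The 6 genes past 4-fold were past it with either class.

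Promoters, where polymerase enters the gene, were compared next. Their window ran from 50 bp upstream of the start to 300 bp into the gene, and 6 of the 10 genes reached the minimum of 20 reads in 1 library. Of these, Lox, Loxl2, Loxl3 and Serpinh1 were at least 4-fold higher in MEF, so 4 of 6 passed toward MEF and 0 toward MESC. Of all 4358 promoter windows tested, 3.03% passed toward MEF, 6.06% toward MESC and 9.09% in either direction. A gene that reaches the minimum only through its MEF reads is bound to lean to MEF, as Lox, Loxl2 and Loxl3 did, so this count is no support of its own.

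Serpinh1 held 41 promoter reads in MESC and 166 in MEF, 5.28-fold higher in MEF (3.73 to 7.63). Lox held 3 and 27, a ratio of 11.7 toward MEF (3.61 to 60.5). Loxl2 held 3 and 59, a ratio of 25.7 (8.36 to 128). At its first annotated start, 305 bp upstream of the one used, Loxl2 held 11 reads in MESC and 36 in MEF. Loxl3 held 1 read in MESC and 39 in MEF, a ratio of 50.9 (8.61 to 2060). P4ha1 held 26 and 32 promoter reads, a fold toward MEF of 1.61 (0.927 to 2.80), and Plod2 held 23 and 9, a ratio of MESC over MEF of 1.96 (0.873 to 4.81), both with intervals that hold 1. Under the minimum lay Plod1 (7 reads in MESC, 8 in MEF), P4ha2 (5 and 9), Loxl1 (4 and 12) and Bmp1 (3 and 3). At another annotated start, 12279 bp into the gene and inside the body counted above, P4ha2 held 9 and 15 reads. With the body counted from that start, P4ha2 held 56 and 82 body reads, a log2 ratio of -0.93.

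**Figure D2:**
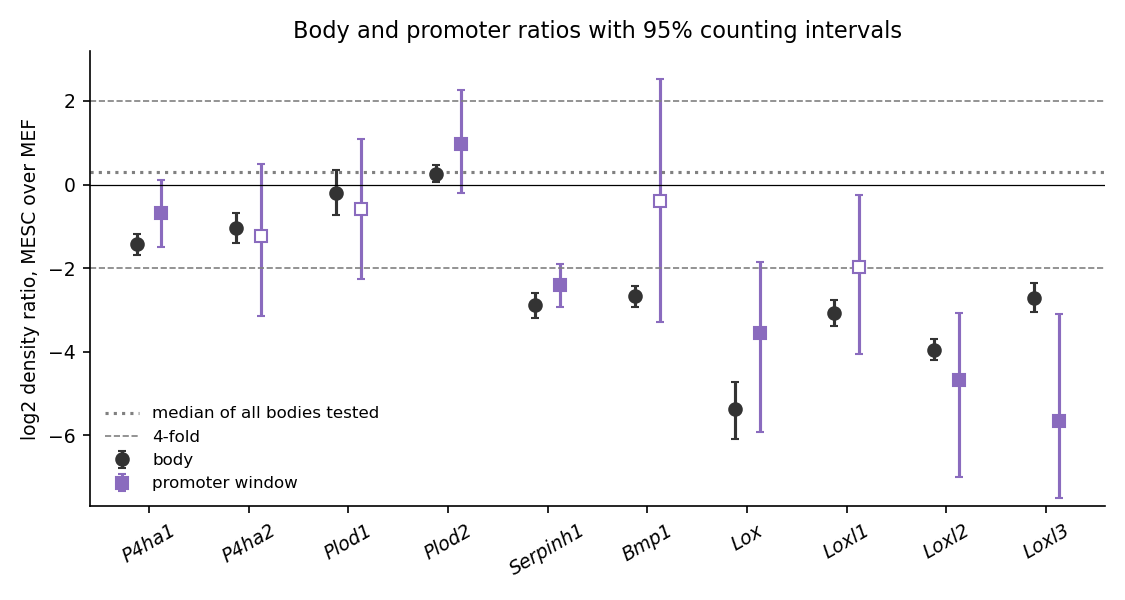
Log2 density ratio of MESC over MEF for gene bodies (black circles) and promoter windows (violet squares; open where under 20 reads in both libraries), with exact 95% intervals; the lower end at Loxl3 is clipped at the axis. Dashed lines mark 4-fold and the dotted line the median of all bodies, 0.30; the body values of Serpinh1, Bmp1 and the 4 lysyl oxidase genes lie below -2.

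Loxl3 and Loxl2 had the most sense reads before their starts. Between 1000 and 51 bp upstream, on the strand of Loxl3, lay 20 reads in MESC and 40 in MEF, more in MESC than the 1 read of its promoter window. Loxl2 held 11 in MESC and 37 in MEF there, again more in MESC than the 3 reads of its promoter window, and its first annotated start lies within this stretch. Dok1, an adaptor protein gene on the opposite strand with 57 reads in MESC and 137 in MEF, starts 702 bp from Loxl3. Whether the reads before Loxl3 belong to it or to the start of Dok1 was not tested. Over the same upstream stretch Lox, Loxl1 and P4ha1 held 0 reads in MESC and 5, 4 and 1 in MEF. On the opposite strand within 500 bp upstream, where divergent transcription from promoters is known to lie, the 10 genes held 0 to 10 reads in MESC and 1 to 18 in MEF, the latter at Lox.

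Pausing was described by the pausing index, the promoter density divided by the body density within a library. P4ha1 had the highest index of the genes with 20 reads in each window, 18.3 in MESC (11.7 to 27.7) and 10.9 in MEF (7.36 to 15.6). Plod2 had 9.07 in MESC (5.69 to 13.8). Serpinh1 had 7.09 in MESC (4.83 to 10.2) and 5.07 in MEF (4.25 to 6.02). For P4ha1 and Serpinh1, the only genes of the 10 with both windows filled in both libraries, the intervals of the 2 cell types overlapped. In MEF Loxl2 had 8.66 (6.57 to 11.2), Loxl3 4.55 (3.19 to 6.32) and Lox 1.55 (1.01 to 2.27). An index of at least 2 was found in 3 of 3 such genes in MESC and 4 of 5 in MEF. Among all genes with 20 reads in each window the share was 96.3% in MESC and 96.8% in MEF, and the median index 10.5 and 13.7. P4ha1 in MESC lay above that median, while Plod2 and Serpinh1 in MESC and all 5 genes in MEF lay below it.

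With no minimum of promoter reads, an alternative added after seeing the data, all 10 genes had a value. The index was at least 2 in 9 of 10 genes in MESC and 7 of 10 in MEF, against 66.9% of 11151 genes and 65.3% of 9960. The MEF exceptions were Lox, Loxl1 at 1.32 (0.679 to 2.32) and Bmp1 at 0.487 (0.100 to 1.43), and the MESC exception was Loxl3 at 0.583 (0.0146 to 3.34). Bmp1 held 3 promoter reads beside 784 body reads in MEF, and an index under 1 was found in 23.1% of all genes in MEF and 22.2% in MESC. Its other annotated starts held 4 and 0 MEF reads. With no such minimum the median index of all genes was 4.05 in MESC and 3.86 in MEF. The indices of the 4 hydroxylase genes lay between 7.98 and 18.3 in MESC except P4ha2, which was just under the median. In MEF they lay between 4.59 and 10.9.

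**Figure D3:**
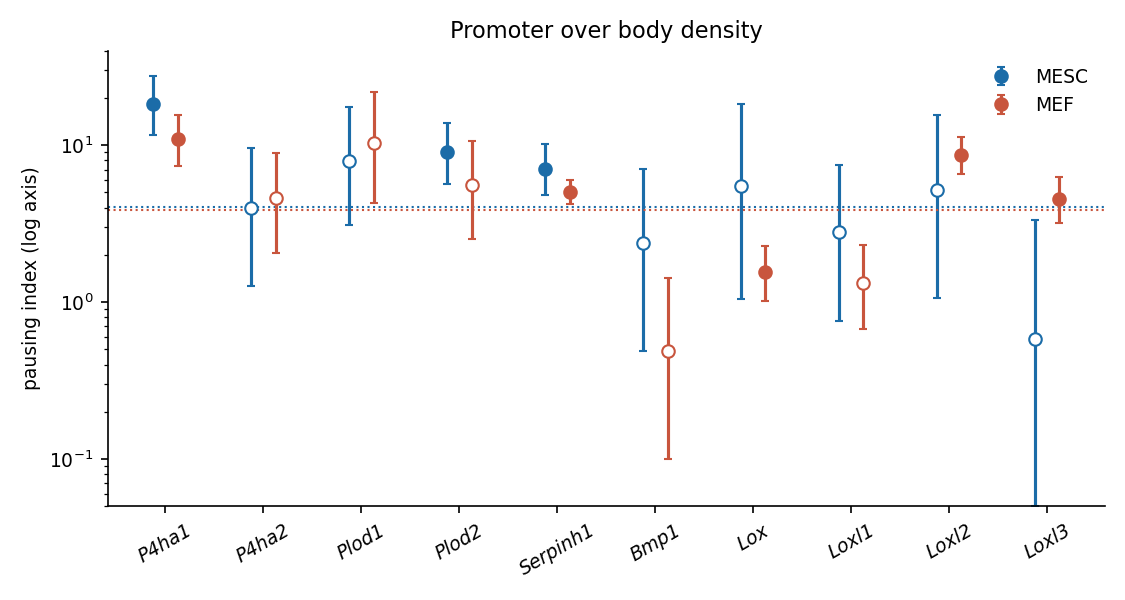
Pausing index (promoter over body density, log axis) of the 10 genes in MESC (blue) and MEF (red), with exact 95% intervals; filled points have at least 20 reads in each window, open points fewer, and dotted lines are the medians of all genes with 20 body reads. P4ha1 lies above both dotted lines in both cell types, but in MEF below 13.7, the median of genes with 20 reads in each window. Lox, Loxl1 and Bmp1 lie below both lines in MEF, and the interval of Loxl3 in MESC is clipped at the lower edge.

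In the genes that passed 4-fold the difference between the cell types was found in every part of the body. When each body was divided into 3 equal parts, Loxl2 held 538, 621 and 497 reads from first to last part in MEF and 58, 45 and 37 in MESC, with folds toward MEF of 12.1, 18.0 and 17.5. Bmp1 held 229, 278 and 277 reads in MEF and 50, 56 and 54 in MESC, with folds of 5.97, 6.47 and 6.69. Serpinh1 had folds of 8.74, 6.86 and 6.56, and Loxl3 of 6.09, 6.27 and 7.01. In each of these genes the intervals of the 3 parts overlapped. Lox held 7, 1 and 12 reads in MESC, too few to give a profile, and 221, 154 and 261 in MEF. Introns alone gave folds of 53.2 for Lox (28.6 to 112), 8.41 for Loxl1, 15.0 for Loxl2, 6.09 for Loxl3, 7.96 for Serpinh1 and 6.28 for Bmp1.

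These reads were spread over many positions. In MEF the 1656 body reads of Loxl2 lay at 1489 positions, with 25 at the fullest. The 636 of Lox lay at 511 positions with at most 7 at 1, and the 640 of Serpinh1 at 459 with at most 11. In MESC the fullest body position of any of the 10 genes held 5 reads, in Serpinh1.

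**Figure D4:**
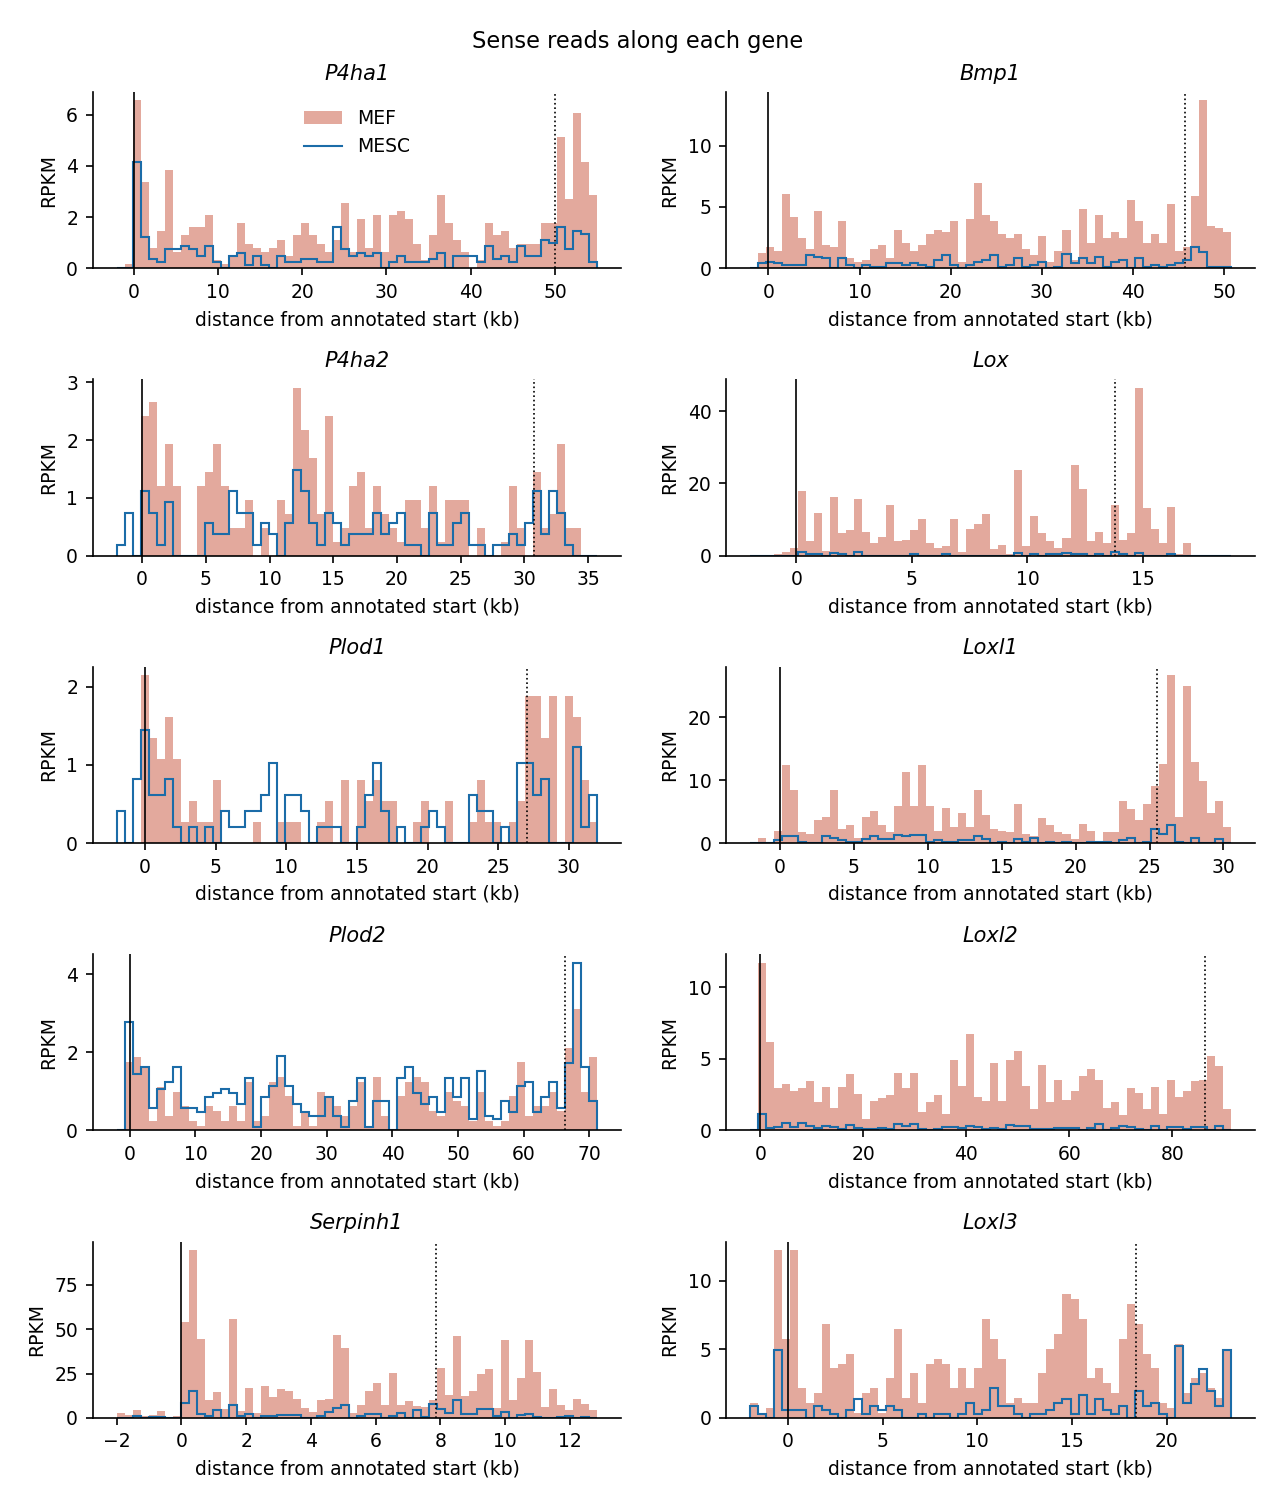
Density of sense reads in RPKM along each of the 10 genes, from 2 kb before the annotated start (solid line at 0) to 5 kb past the annotated end (dotted line), in 60 bins per gene; MEF is filled red and MESC the blue line. MEF exceeds MESC along most of Lox, Loxl1, Loxl2, Serpinh1 and Bmp1, while the profiles of Plod1 and Plod2 run together.

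Polymerase continued past the annotated ends, as it does before termination. In the 5 kb after the end Serpinh1 held 99 reads in MESC and 619 in MEF, 8.16-fold higher in MEF (6.59 to 10.2). Lox held 5 and 239, a fold of 62.4 (26.3 to 194). Loxl1 held 28 and 376, a fold of 17.5 (11.9 to 26.7), whose interval lies above that of its body, 8.35 (6.75 to 10.4). The density there, relative to the body of the same gene, was 290% at Loxl1 in MEF, 330% at P4ha1 and 393% at Plod1, against 96.2% at Lox and 82.4% at P4ha2. Loxl2 and Bmp1 had folds toward MEF of 25.2 (11.2 to 70.1) and 7.45 (5.06 to 11.3) after their ends, and Plod2 held 90 and 65 reads, a fold toward MEF of 0.942 (0.674 to 1.31). Loxl3 was not read in this way because Aup1 of the same strand lies in the window.

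Antisense reads over the bodies were most numerous at Loxl3 and Loxl1 in MESC and at Loxl2 and Loxl3 in MEF. Over Loxl2 lay 44 antisense reads in MESC and 475 in MEF, 14.1-fold higher in MEF (10.3 to 19.6), near the 15.4-fold of the sense strand. The annotated long non-coding RNA gene Gm16867 covers all of Loxl2 on that strand and runs on to both sides. Over its full length of 180866 bp Gm16867 held 486 reads in MESC and 908 in MEF, 2.44-fold higher in MEF (2.18 to 2.73). Its span also holds R3hcc1, a coding gene of its own strand, with 241 and 199 reads, so reads of Gm16867 and R3hcc1 cannot be told apart there. The annotated R3hcc1 lies 1472 bp outside Loxl2 and had 0 reads in the Loxl2 body in either library. Over Loxl3 lay 221 antisense reads in MESC and 240 in MEF, a fold of 1.42 (1.17 to 1.71). In MESC this antisense density was 260% of the sense density, and in MEF 56.5%. Htra2, a mitochondrial protease gene of the opposite strand, overlaps the last 1279 bp of Loxl3, where 7 of those reads lay in MESC and 33 in MEF. Loxl1 held 51 and 62 antisense reads, 51.5% and 9.78% of its sense density, and Lox 1 and 36, and in the other 6 genes there were at most 17 in either library.

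Genes of the same pathway were taken from lists that were not picked for how they moved in this comparison, though earlier results of these data were known. Of 14 tested genes for collagen modification and folding, 2 passed 4-fold toward MEF and 0 toward MESC, against 5.51% and 8.00% of all bodies. The median log2 of the 14 was -0.55, beside 0.30 for all bodies. The 2 genes past 4-fold were P4ha3 and Leprel2. P4ha3, given above, reached the read minimum only through MEF. Leprel2, which encodes a prolyl 3-hydroxylase, stood at 4.12-fold (3.13 to 5.48). The general folding genes Canx (1190 reads in MESC, 546 in MEF) and Pdia3 (654 and 461) had log2 ratios of 0.74 and 0.12. Plod3, the lysyl hydroxylase gene not among the 10, held 89 reads in MESC and 122 in MEF but overlaps another gene of its strand and was not tested.

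Of 14 tested genes for collagen export and propeptide processing, 3 passed 4-fold toward MEF and 0 toward MESC. Of all bodies 5.51% and 8.00% did so. The median log2 of the 14 was -1.27, beside 0.30 for all bodies. Adamts2, the gene of the procollagen amino-terminal protease, held 93 reads in MESC and 1247 in MEF, 17.5-fold higher in MEF (14.2 to 21.8). Tll1, a close relative of Bmp1 that also trims procollagen, held 88 and 653, 9.68-fold higher (7.74 to 12.2). Creb3l1, which encodes a membrane-bound transcription factor of the secretory pathway, was 5.57-fold higher (4.61 to 6.77). The coat protein gene Sec24d, with 424 and 1288 reads, stood at 3.96-fold (3.55 to 4.43), just inside the limit, and Sec23a at 2.26-fold (1.96 to 2.61).

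Genes for the substrates of these enzymes were mostly higher in MEF. Of 13 genes for fibrillar collagens and elastic fibres 12 passed 4-fold toward MEF and 0 toward MESC, against 5.51% and 8.00% of all bodies. The median log2 of the 13 was -4.85, beside the -2.69 of the 10 genes. Col1a1 was 73.7-fold (58.7 to 93.9), Col5a3 63.6-fold (35.2 to 128), Col3a1 39.4-fold (29.8 to 53.4) and Col1a2 33.3-fold (28.4 to 39.3) higher in MEF. Of the 12, Col5a3, Col11a1, Eln, Fbln5 and Efemp2 reached the read minimum only through MEF, where they were high, so neither the count nor the median supports a difference from the 10 genes. Fn1, the fibronectin gene, was the exception at 3.97-fold (3.74 to 4.22). The lowest of the 12, Efemp2, stood at 6.09-fold (3.63 to 10.8), so the folds of substrates and of the 10 genes overlap, and 6.09 lies below all 6 folds of the 10 that passed.

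**Figure D5:**
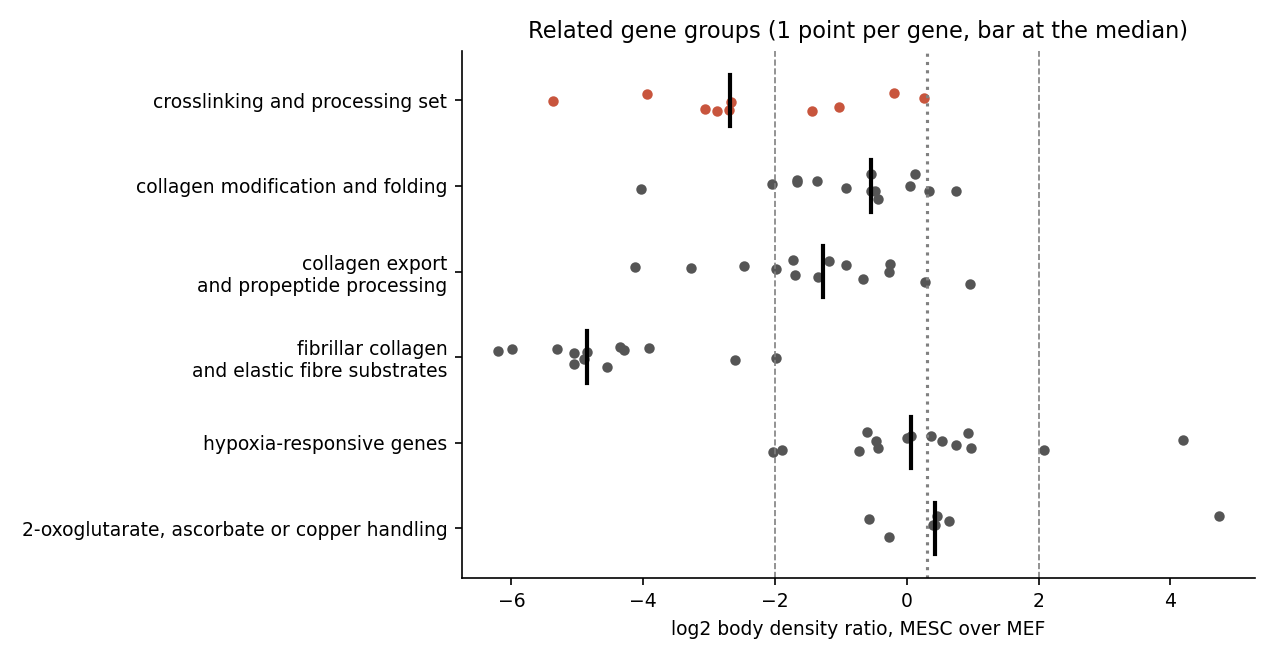
Log2 body density ratio of MESC over MEF, 1 point per gene, for the 10 genes (red) and 5 related lists (grey), with a black bar at each median; dashed lines mark 4-fold and the dotted line the median of all bodies, 0.30. The substrate genes lie farthest toward MEF (median -4.85), the 10 genes next (-2.69), and the medians of the other 4 lists within 4-fold.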

How the data were processed

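Per the series design text, the authors aligned reads with Eland to mm9 and removed reads in regions that RepeatMasker annotates as similar to rRNA. The file headers give each file as all runs of a cell type together, on a genome that was not repeat masked. The deposited files list 1 line per read with the value 1, so the unit is a raw read count. The Eland version and its handling of duplicates and of reads with several matches were not given in the sources used here. Groups came from the sample titles. Sampled reads, 1 in 400, were checked against NCBIM37, taking the listed position as the 5′ end; 93.0% (MESC) and 95.5% (MEF) had at most 2 mismatches.

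Python 3.11.15, numpy 2.4.6 and scipy 1.17.1 were used. The longest GENCODE transcript stood for each gene; of 22885 models of at least 2000 bp, 2944 overlapping a gene of the same strand in the counted part were left out. Scaling used reads outside the mitochondrial genome, 8571395 and 6571116. Loci similar to ribosomal DNA held 11.5% and 16.4% of reads. Intervals of ratios are exact (Clopper-Pearson, given the summed count), and a gene was called at a ratio of at least 4 with counts under 3 set to 3. The edgeR test planned for separable samples was not made; edgeR 4.0.16 gave TMM factors only. The call rule was tested on simulated data. Alternatives changed scaling, read minimum, windows, start, read length, depth and duplicate positions. Named were all 10 genes, and from each list up to 4 past 4-fold with the largest ratio and 2 within it with the most reads. Loxl4, Plod3, P4hb, Efemp2, Gulo and the neighbouring genes are outside that rule, their values having been seen first. The genes and lists were chosen with earlier results of these data known. A search for genes of like pattern was not made, since 2 libraries give 2 values a gene.

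Marker lists of other cell types had few tested genes, and 3 of 3 endothelial genes and the 1 muscle gene lay within 4-fold. Toward MEF passed 2 of 2 cartilage and 2 of 2 macrophage genes, against 5.51% of all bodies. Toward MESC passed 4 of 4 epithelial and 2 of 3 neural genes, against 8.00%. The macrophage genes and Acan reached the read minimum only through MEF. Epcam, Krt8, Cldn6, Elavl3, Pecam1 and Vwf reached it only through MESC. Such genes were bound to lean that way, so these counts are no support of their own.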

Additional observations from a re-analysis of the deposited data

How the results depend on the processing

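All 6 genes past 4-fold kept their direction and stayed past it under each of 12 alternatives for the body. Over these alternatives the log2 ratio of Lox ran from -5.78 to -5.10, of Loxl1 from -3.30 to -2.89, of Loxl2 from -4.19 to -3.87, of Loxl3 from -2.95 to -2.61, of Serpinh1 from -3.13 to -2.63 and of Bmp1 from -2.92 to -2.53. P4ha1, P4ha2 and Plod2 kept their sign and Plod1 did not. TMM and median-ratio scaling moved the median of all bodies from 0.30 to 0.06 and 0.10, and the bodies past 4-fold toward MESC and MEF to 645 and 639 and to 662 and 621. Bodies higher in MESC and MEF, 761 and 524, became 284 and 307 with a minimum of 200 reads and 1311 and 839 with none beyond 3 reads, and 459 were higher in MESC with its 35-base reads. Promoters, 264 and 132, became 119 and 74 with each position counted once and 72 and 36 with a minimum of 50 reads, which left 2 of 2 tested genes of the set (Loxl2 and Serpinh1) past 4-fold. Promoters higher in MESC were 102 and 148 with 35-base and 36-base reads. Genes with a pausing index of at least 2, 3669 in MESC and 2512 in MEF, became 7462 and 6500 with no promoter minimum. No paired analysis was possible because the files mix the samples of each cell type without names, and for the same reason no replicate could be left out. Depth limits the promoter windows, where 4 of 10 genes lay under 20 reads in both libraries, and the windows before the starts.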

Other observations

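Prolyl and lysyl hydroxylases need oxygen, 2-oxoglutarate and ascorbate, and lysyl oxidases need copper, so genes of these supplies were read from the same pooled libraries. Of 15 tested hypoxia-responsive genes 1 passed 4-fold toward MEF and 2 toward MESC, against 5.51% and 8.00% of all bodies. Counts this small do not set the list apart, and the 2 toward MESC reached the read minimum only through MESC. The median log2 of the 15 was 0.06. This value is smaller than the shift of all bodies from 0.30 to 0.06 under TMM scaling, so it has no direction. Vegfa, the angiogenic growth factor gene, was 4.09-fold higher in MEF (3.26 to 5.17). Pdk1, which encodes a kinase that restrains pyruvate oxidation, held 1068 reads in MESC and 45 in MEF, a ratio of 18.2, and Epas1, a hypoxia-inducible factor gene, had a ratio of 4.24 (3.01 to 6.09). Hif1a and Kdm3a, the most read of those within 4-fold, had log2 ratios of -0.61 and 0.37.

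Of 7 tested genes for 2-oxoglutarate, ascorbate and copper supply, 1 passed 4-fold toward MESC and 0 toward MEF. Of all bodies 8.00% and 5.51% did so. A count this small does not set the list apart. The median log2 of the 7 was 0.43 (all bodies 0.30). The gene past 4-fold was Slc23a1, which encodes an ascorbate transporter. It had 104 body reads in MESC and none in MEF (0), so it reached the read minimum only through MESC and was bound to lean that way. With its MEF count set to the floor of 3 reads, the ratio of MESC over MEF was 26.6. From the counts as read, the exact lower bound of the ratio was 21.2. Slc23a2, the gene of the related transporter, held 559 and 326 reads, log2 0.39. Atp7a, the copper pump gene that loads secreted copper enzymes, held 318 and 178, log2 0.45, while the copper enzyme genes Lox, Loxl1, Loxl2 and Loxl3 were all higher in MEF. Gulo, which encodes the last enzyme of ascorbate synthesis in mice, held 22 reads in MESC and 0 in MEF, under the read minimum.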
